A study of Mus musculus with 2 samples.

Results

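The fatty acid-binding proteins Fabp1 to Fabp7 and the fatty acid receptor Cd36 were examined in the inguinal white adipose tissue of mice lacking apolipoprotein E. The 8 genes were chosen by name, and all 8 were found among 19938 genes with a named probe set, each on at least 1 probe set that carries its symbol alone. The group ApoE-KO was ApoE-/- and the group DKO was Ucp1-/-;ApoE-/-, so by their labels both groups lacked ApoE and they differed in the gene of uncoupling protein 1 (UCP1), the protein with which brown and beige fat turns energy into heat. All mice were C57BL/6J males, littermates across the genotypes, housed at 23 °C and given high-fat food for 9 weeks from 9 weeks of age, and no wild-type or chow-fed group was analysed here. RNA of 3 mice per genotype was mixed and put on 1 Affymetrix whole-transcript array, which gave 2 arrays in all. With 1 array per group nothing measures how mice of a genotype vary, so the differences below have no replicate check and no test was run. The values are probe set intensities in arbitrary units, the 2 arrays are named by their labels, and differences are log2 of the DKO-labelled array minus log2 of the ApoE-KO-labelled array. Where values are given as a pair, the DKO-labelled array comes first. The number of arrays limits their precision.

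Long-chain fatty acids reach an adipocyte after lipoprotein lipase frees them from circulating triglyceride. Cd36 binds them at the plasma membrane, and inside the cell small fatty acid-binding proteins carry them through the cytosol to lipid droplets, to mitochondria, or to nuclear receptors of the PPAR family. The forms differ by tissue. Fabp4 is the form of white adipocytes and macrophages, and Fabp3 that of heart, oxidative muscle and brown fat. Fabp5 is made in epidermis, macrophages and endothelium, among other cells. Fabp1 belongs to liver, Fabp2 to the small intestine, Fabp6 to the ileum, where it binds bile acids, and Fabp7 to glia. In brown fat Fabp3 is counted among the genes of fatty acid use for heat production.

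Some facts of the arrays bear on every value. Their median intensities were 152.1 in the DKO-labelled and 157.65 in the ApoE-KO-labelled one, over all 35557 probe sets. A gene counted as above the floor when its mean log2 intensity was at least the median over genes, 7.60, an intensity of 194. This floor, which 9969 genes met, is a rule and not a limit of detection. The Ucp1 probe set read 2230 in the DKO-labelled array and 219 in the ApoE-KO-labelled array, so the Ucp1 signal was 10.2-fold higher where the label says that UCP1 was absent. If its probes read the disrupted part of the gene, which the sources used here do not state, that value goes against the label. The Apoe probe set, for the gene described as disrupted in both groups, read 502 and 589, above the floor in both arrays, and whether its probes read the disrupted part is likewise not stated. Each direction below therefore rests on the labels. Adipocyte markers were strong in both arrays: 13 of 14 listed markers were measured, all above the floor, with intensities that summed to 65437 (DKO) and 60119 (ApoE-KO).

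The members fell into 3 patterns. Fabp3 was far higher and Fabp5 moderately higher in the DKO-labelled array, Fabp4 and Cd36 had strong and nearly equal signals in both arrays, and Fabp1, Fabp2, Fabp6 and Fabp7 lay below the floor. Of the 8 members, 2 were above the floor and at least 2-fold higher, beside 277 of 9969 genes above the floor (2.78%), and 0 members were at least 2-fold lower, beside 70 of those genes (0.702%). The median difference of all 8 members was 0.13, against -0.01 over all 19938 genes. Both medians include genes below the floor, where signal was not told apart from background. The 4 members below the floor could not count in either direction.

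**Figure D1:**
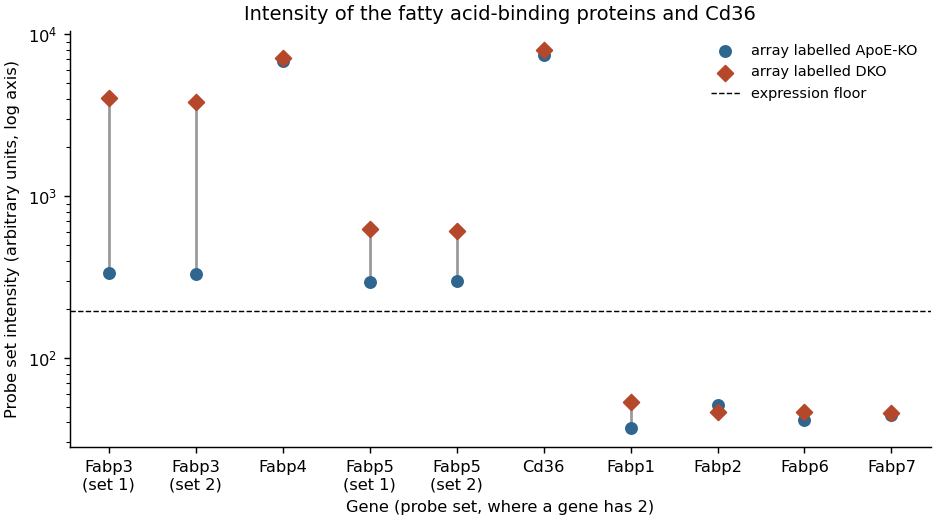
Probe set intensity (log axis, arbitrary units) of each member in the ApoE-KO-labelled array (circles) and the DKO-labelled array (diamonds), 1 array each, with the floor of 194 as a dashed line. The first Fabp3 set goes from 334 to 4036 and the first Fabp5 set from 294 to 625, the second sets follow them, Fabp4 and Cd36 show near-equal pairs and the other 4 genes lie below the floor; heights of different probe sets are not comparable with each other.

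Fabp3, the heart and brown fat form, read 4036 in the DKO-labelled array and 334 in the ApoE-KO-labelled array. It was thus above the floor in both arrays, 12.1-fold higher in the DKO-labelled array (a log2 difference of 3.59). Of the 9969 genes above the floor, Elovl3 (4.90) and Slc27a2 (4.06) were the 2 genes with a larger difference in this direction. Both of these lay below the floor in the ApoE-KO-labelled array, with intensities of 67.2 and 161. With the floor in place of those lower values, Elovl3 stood at 3.37, under Fabp3, and Slc27a2 at 3.80. Among the 9540 genes at or above the floor in both arrays, Fabp3 had the largest difference toward higher values in the DKO-labelled array. It was followed by Ucp1 (3.35), Cox7a1 (3.23), Cidea (2.90) and Elovl6 (2.85). Some genes of these 9540 had differences of larger size in the other direction, among them the muscle genes Pygm (-4.17) and Acta1 (-3.99).

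A second probe set annotated to Fabp3 (10371502) read 3811 in the DKO-labelled array and 329 in the ApoE-KO-labelled array, an 11.6-fold difference (3.53), beside 3.59 for the first (10508614). The differences of the pair lay 0.06 apart. Over 424 genes with 2 probe sets above the floor, the median gap was 0.09 and 95% of gaps were at most 0.40. The annotation lists the same transcripts for both Fabp3 sets, so they are not independent readings of the gene. RefSeq places Fabp3 on chromosome 4. The second set is numbered between the sets of Hsp90b1 and Stab2 on chromosome 10, where RefSeq also has the pseudogene Fabp3-ps1 between those genes. Consecutive named probe sets fell on the same chromosome in 94.3% of cases. Whether the second set was designed on the pseudogene is not stated in the sources used here, and signal of a near-identical copy cannot be told apart from that of Fabp3.

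Fabp5, the epidermal form that other cells also make, macrophages and endothelium among them, read 625 in the DKO-labelled array and 294 in the ApoE-KO-labelled array. It was thus 2.13-fold higher in the DKO-labelled array (1.09). This placed it above 97.8% of the genes over the floor. Its second probe set (10585699) read 612 and 297, a 2.06-fold difference (1.04), 0.05 from that of the first. Both sets are thus just past 2-fold, and with 50 added to each intensity before the logarithm the difference was 0.97, short of that size. RefSeq has Fabp5 on chromosome 3, whereas the second set is numbered between Trcg1 and Rpp25 on chromosome 9, and the annotation gives both sets the same transcripts. For this gene too, signal from a near-identical copy was not separated.

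Fabp4, the adipocyte form and one of the most used markers of fat cells, read 7166 in the DKO-labelled array and 6889 in the ApoE-KO-labelled array. Its difference was 0.06, or 1.04-fold. Of the genes above the floor, 59.5% had a smaller value, negative ones included, and 16.3% had a difference nearer 0. Cd36, the membrane receptor that takes up long-chain fatty acids, read 7988 and 7484, a difference of 0.09 or 1.07-fold. Without replicates, differences of this size cannot be separated from the variation between arrays. The brightest probe sets of the arrays reached 22552 and 23636. Of 35557 probe sets, 114 were brighter than Cd36 in the DKO-labelled array and 154 in the ApoE-KO-labelled array. Cd36 thus read near the upper end of the intensity scale, and Fabp4 was not far below it. Whether such bright sets still respond in proportion to the RNA was not tested.

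The difference of Fabp3 exceeded that of Fabp4 by 3.54, that of Cd36 by 3.50 and that of Fabp5 by 2.51 on the log2 scale. The tissue forms of this family therefore differed unequally between the arrays, which says nothing about the absolute amount of any of them. Probe sets differ in how strongly they bind, so their intensities give no order of levels between genes.

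**Figure D2:**
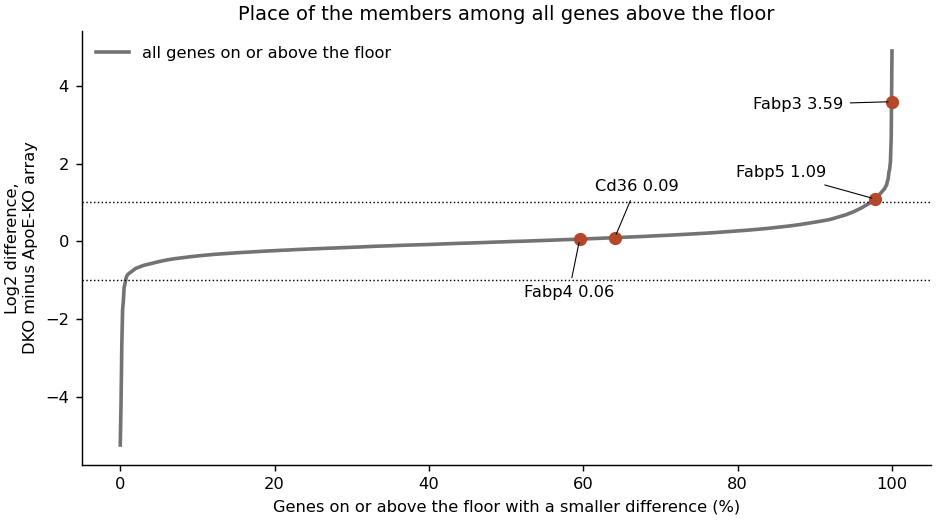
Log2 difference (DKO-labelled array minus ApoE-KO-labelled array) against the percentage of the 9969 genes above the floor with a smaller difference, negative ones included. Dotted lines mark 2-fold. Fabp3 (3.59) sits at the upper end of the curve, Fabp5 (1.09) just above the 2-fold line, and Fabp4 (0.06) and Cd36 (0.09) on its flat middle.

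The remaining 4 members had intensities between 36.7 and 53.3 in both arrays, below the floor of 194. Fabp1, the liver form, read 53.3 in the DKO-labelled array and 36.7 in the ApoE-KO-labelled array (0.54). Fabp2, the intestinal form, read 46.4 and 51.4 (-0.15), and was the 1 member with the lower value in the DKO-labelled array. Fabp6, which binds bile acids in the ileum, read 46.6 and 41.4 (0.17), and Fabp7, the glial form, read 45.6 and 44.2 (0.05). Signal at this level was not told apart from background, so these differences carry no direction. Markers of the tissues these forms belong to were mostly low too: 9 of 10 enterocyte markers were below the floor in each array, as were 6 of 9 measured hepatocyte markers. The exceptions in the hepatocyte list were Alb (837 and 417), Apoa2, and Cyp2e1 (10388 and 10436).

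The upstream sequences of 3 members are shown because their values differ: Fabp3 had the largest difference, Cd36 had nearly none, and Fabp1 has the closest match to the element that PPAR and retinoid X receptor pairs bind. The sequences are RefSeq's (GRCm38.p6), the 250 bases before the start site, 5′ to 3′ on the gene's strand, and the table matched 6 of the 8 members. Capitals mark matches to AGGTCANAGGTCA, a direct repeat with 1 base between, searched on both strands with up to 2 mismatches. Fabp3 lies at chr4:130308488-130308737 (plus strand), Cd36 at chr5:17835897-17836146 (minus strand) and Fabp1 at chr6:71199629-71199878 (plus strand).
Fabp3: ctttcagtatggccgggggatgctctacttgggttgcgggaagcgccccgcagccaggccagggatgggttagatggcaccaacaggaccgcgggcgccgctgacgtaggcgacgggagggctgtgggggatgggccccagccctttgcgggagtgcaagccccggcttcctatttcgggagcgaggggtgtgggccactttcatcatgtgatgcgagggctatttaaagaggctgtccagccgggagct
Cd36: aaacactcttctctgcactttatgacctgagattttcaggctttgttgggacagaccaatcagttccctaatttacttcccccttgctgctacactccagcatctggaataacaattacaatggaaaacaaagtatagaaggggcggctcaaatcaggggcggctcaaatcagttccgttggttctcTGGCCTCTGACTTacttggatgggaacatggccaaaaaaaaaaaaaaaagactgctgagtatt
Fabp1: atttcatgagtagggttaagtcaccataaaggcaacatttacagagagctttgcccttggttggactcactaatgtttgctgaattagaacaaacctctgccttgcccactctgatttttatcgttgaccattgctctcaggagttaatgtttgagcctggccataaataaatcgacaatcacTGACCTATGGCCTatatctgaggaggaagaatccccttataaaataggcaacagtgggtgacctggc

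A match was present in 2 of the 6 members, Fabp1 (1 mismatch, from base -67) and Cd36 (2 mismatches, from base -63), both on the opposite strand. Of 32851 promoters of this table, 3.24% held one in the same window. Fabp3, Fabp2, Fabp6 and Fabp7 held none, which says only that these letters are not in the 250 bases searched. The 12.1-fold difference of Fabp3 and the 1.07-fold difference of Cd36 are thus values of genes without and with such a match in this window, and a match is a description of letters, not a bound site.

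Other genes of the same protein family showed little signal. Of 8 listed relatives, which include the retinol and retinoic acid carriers, 7 were measured and 0 lay above the floor. Rbp7, a retinol carrier of adipocytes and endothelium, read 204 in the DKO-labelled array and 143 in the ApoE-KO-labelled array. Pmp2, the myelin form, Fabp9 of testis and Fabp12 read between 38.5 and 56.9. These 3 genes lie with Fabp5 and Fabp4 in 1 cluster on chromosome 3, where the order of measured genes is Fabp5, Gm9833, Pmp2, Fabp9, Fabp4 and Fabp12. Fabp5 was the 1 gene of this cluster at least 2-fold higher. On the Fabp5 side, Pag1 read 151 and 237 (-0.65), Zfp704 386 and 408 (-0.08) and Zbtb10 246 and 213 (0.21). On the Fabp4 side, Impa1, which makes inositol, read 349 and 259 (0.43), and Slc10a5 read 38.3 and 32.3.

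The genes nearest to each member in both log2 intensities were listed by a fixed rule, over 2 arrays only, so the likeness is of 2 values and no more. For Fabp3 they were Cox7a1 (3308 and 352), Cidea (3053 and 410) and Elovl6 (3676 and 511). These are a brown fat and muscle subunit of cytochrome c oxidase, a lipid droplet protein of brown adipocytes, and a fatty acid elongase. For Fabp5 they were Pcyt2, Ndufb3 and Mrpl47, with differences between 1.02 and 1.09. For Fabp4 they were Hspa8, Ppp2r5a and Txnip, and for Cd36 they were Ube2d3, Ppp2r5a and Cdo1, none of them past 2-fold (differences from -0.21 to 0.24).

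Genes that act before, beside and after these carriers were read from 7 lists with 81 entries, of which 75 were measured and 61 above the floor. A higher value in the DKO-labelled array by 2-fold or more was seen for 15 of the 61, and a lower one for 0. Over all 9969 genes above the floor, 2.78% were that much higher and 0.702% that much lower. The counts of each list below, marker lists included, stand beside the same shares. With so small a share lower, 0 of 61 is no trait of these lists. Of the 15, 10 were in the list of mitochondrial entry and beta-oxidation.

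Release of fatty acids from lipoproteins, the step before uptake, had a median difference of 0.34 over 10 measured genes, and 0 of the 8 above the floor reached 2-fold. Angptl8, an insulin-induced regulator of lipoprotein lipase, read 428 and 224 (0.93). Vldlr, which binds triglyceride-rich lipoproteins, read 2121 and 1176 (0.85), Lmf1, a maturation factor of the lipase, 760 and 531 (0.52), and Apoc1 607 and 440 (0.47). The largest differences of this list were therefore upward but under 2-fold.

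Uptake at the plasma membrane, the step of Cd36, had a median of 0.08 over 20 measured genes. Of 16 above the floor, 1 was at least 2-fold higher. This was Slc27a2, an acyl-CoA synthetase of the fatty acid transport protein family, which went from 161 in the ApoE-KO-labelled array to 2695 in the DKO-labelled array. The next were Acsl5, another acyl-CoA synthetase (0.60), Lyplal1 (0.55) and the lysosomal Cd36 relative Scarb2 (0.32). Most measured genes of this list differed by less than 2-fold, as did Cd36. The same holds for most of the 9969 genes above the floor, of which 2.78% were at least 2-fold higher and 0.702% at least 2-fold lower. Acsl1 and Acsl3 were on the list but not measured.

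Carriers that share the cytosol with the fatty acid-binding proteins had a median of 0.20 over 9 genes. Scp2, a sterol and lipid carrier of peroxisomes, was the 1 member past 2-fold, with 2254 and 1061 (1.09). Pctp, a phosphatidylcholine carrier, stood at 0.58, Dbi, the acyl-CoA-binding protein, at 0.35 and Acbd4 at 0.24.

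Receptors of the PPAR family, to which these carriers can pass their ligand, were listed together with retinoid X receptors and coactivators. This list had a median of 0.27 over 10 genes, all above the floor, and 3 were at least 2-fold higher. Ppara, the receptor of fatty acid oxidation genes, read 1009 in the DKO-labelled array and 243 in the ApoE-KO-labelled array (2.06). The coactivator genes Ppargc1a (660 and 244, 1.44) and Ppargc1b (768 and 329, 1.23) followed. Pparg, the adipocyte receptor that drives Fabp4 and Cd36, read 3026 and 2181 (0.47). Ppara and Pparg thus differed unequally, by 4.16-fold and 1.39-fold. The remaining PPAR, Ppard, was lower in the DKO-labelled array, with 415 and 479 (-0.21). Of the 10 genes of the list, 7 were higher in that array and 3 lower.

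Lipases that release stored fatty acids had a median of 0.26 over 8 genes, with 0 past 2-fold. Abhd6, a monoacylglycerol lipase, read 1280 and 662 (0.95), and Abhd5, the cofactor of adipose triglyceride lipase, 1468 and 1047 (0.49). Ces1d stood at 0.37 and Mgll at 0.28.

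Mitochondrial entry and the first steps of beta-oxidation, where carried fatty acids are burnt, had a median of 1.55 over 11 measured genes, and 10 of the 11 were at least 2-fold higher. The exception, Cpt1a, which makes acylcarnitine at the outer mitochondrial membrane, read 835 and 727 (0.20). Cpt1b, another form of this enzyme on the list, was not measured. The thiolase gene Acaa2 went from 1371 in the ApoE-KO-labelled array to 5986 in the DKO-labelled array (2.13), and the dehydrogenase gene Acadvl from 635 to 2772 (2.13). Slc25a20, the carnitine carrier, stood at 2.01 and Hadha, a trifunctional protein subunit, at 1.57. All 11 were higher in the DKO-labelled array, and Fabp3 had a larger difference than each of them.

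**Figure D3:**
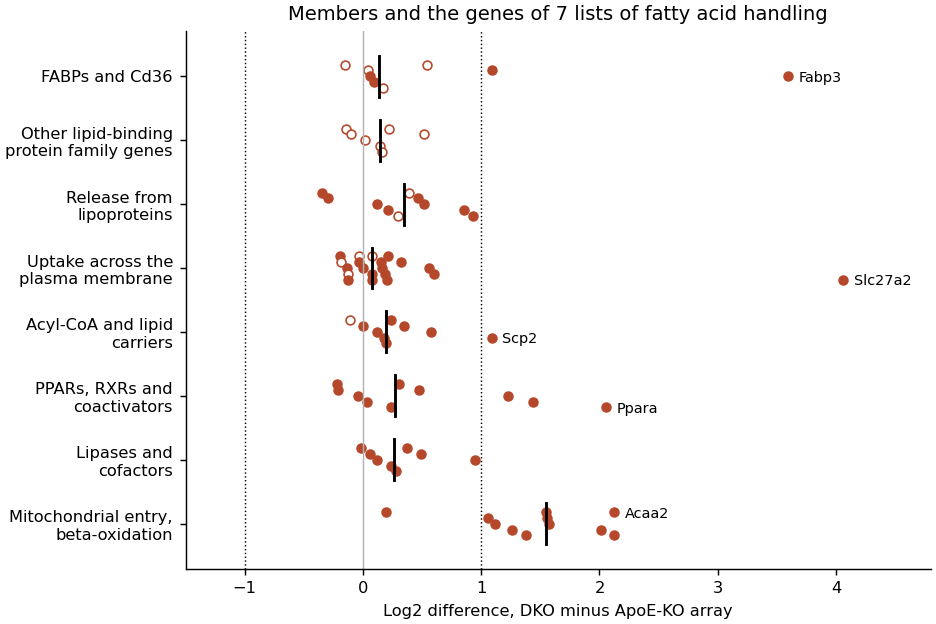
Log2 difference (DKO-labelled array minus ApoE-KO-labelled array) of each measured gene, in rows for the 8 members and 7 lists of fatty acid handling; filled points are above the floor, open points below it, black bars are medians over all measured genes and dotted lines mark 2-fold. Fabp3 (3.59) and Slc27a2 (4.06) lie far right of their rows, and 10 of the 11 points of the beta-oxidation row lie past 2-fold (median 1.55).

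Several members are also made by cells other than adipocytes, so marker lists of those cells were read beside them. In bulk tissue, fewer cells of a type and less RNA per cell cannot be told apart. Skeletal muscle, a tissue that contains Fabp3 and Cd36, had 16 of 16 fibre markers lower in the DKO-labelled array. Their summed intensities were 2347 and 38139 (labelled DKO and ApoE-KO), and 13 of the 16 were below the floor in the DKO-labelled array. Fabp3 was higher in the DKO-labelled array and these fibre markers were lower, and the part of muscle in the Fabp3 difference was not tested. Markers of slow and cardiac muscle were mostly below the floor, 11 of 12 in the DKO-labelled array and 10 of 12 in the other, with summed intensities of 1382 and 1834. Mb, the myoglobin gene, was the 1 marker of that list at least 2-fold lower (213 and 562). How far muscle RNA added to the Fabp3 and Cd36 signals of the ApoE-KO-labelled array was not tested.

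Most brown and beige adipocyte markers differed in the same direction as Fabp3. Of 12 listed markers, 11 were measured and 9 were at least 2-fold higher in the DKO-labelled array. Their median was 1.96 and their summed intensities were 18972 and 4375. The list was chosen with earlier results of these data known, so this count is no independent support. Cox8b, a brown fat and muscle subunit of cytochrome c oxidase, read 4514 and 1159, and Cox7a1 stood at 3.23. The markers short of 2-fold were Prdm16 (345 and 316, 0.13) and Ebf2 (513 and 596, -0.21), the latter lower in the DKO-labelled array. The part of these cells in the Fabp3 difference was not tested.

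For Fabp5, Fabp4 and Cd36 the relevant cells include macrophages and endothelium. All 16 macrophage markers were lower in the DKO-labelled array, with summed intensities of 13109 and 18683, a median of -0.47 and 0 past 2-fold. The 12 endothelial markers had summed intensities of 10979 and 10399 and a median of 0.12. Fabp5 was higher in the DKO-labelled array, where the macrophage markers were lower. Keratinocyte and epithelial markers summed to 1443 and 1399, with 10 of 12 below the floor in each array, including Krt5 (92.9 and 92.2) and Krt14 (92.2 and 88.7). B and T cell markers were lower in 10 of 10 genes, summing to 4704 and 8233. The part of these cells in the differences of the members was not tested.

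The markers of Schwann cells and glia, the cells of Fabp7, summed to 1618 and 1466 over 7 measured genes, with 3 below the floor in the DKO-labelled array and 4 in the other. Of the 7, 5 were lower in the DKO-labelled array, with a median of -0.17. Mbp read 353 and 425 and Ngfr 260 and 292. S100b, named after its values were seen, read 429 and 121, and without it the sums were 1189 and 1345. The mammary list summed to 2516 and 2304, nearly all of it from Mfge8 (2081 and 1885), which other cells also make.

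**Figure D4:**
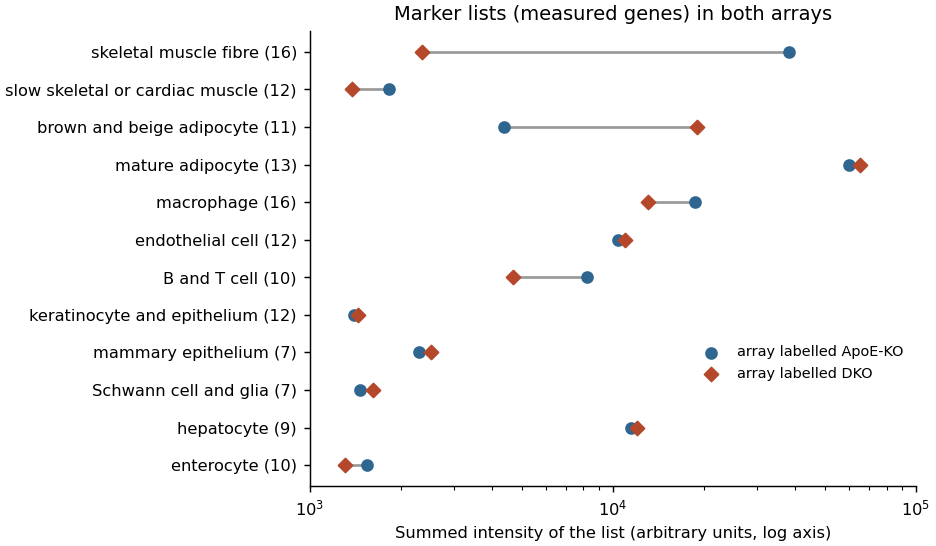
Summed intensity (log axis, arbitrary units) of 12 marker lists in the ApoE-KO-labelled array (circles) and the DKO-labelled array (diamonds), with the number of measured genes in brackets. The skeletal muscle fibre list is far lower in the DKO-labelled array (2347 against 38139) and the brown and beige list higher (18972 against 4375). The mature adipocyte and endothelial pairs nearly coincide.

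The differences were recomputed under 6 other treatments of the intensities. Fabp3 stayed between 3.41 and 3.65, Fabp5 between 0.97 and 1.14, Fabp4 between 0.06 and 0.11 and Cd36 between 0.09 and 0.16. The order Fabp3, Fabp5, Cd36, Fabp4 of these differences held in each of them.

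**Figure D5:**
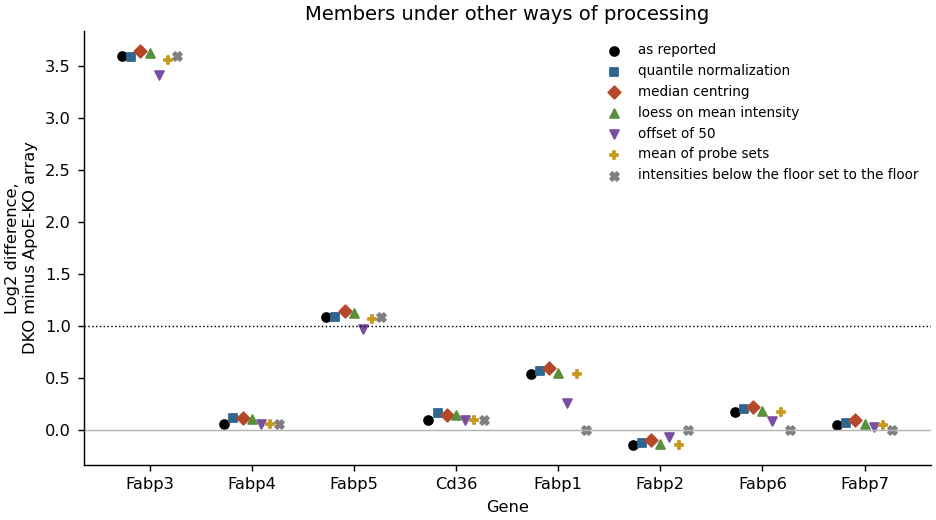
Log2 difference (DKO-labelled array minus ApoE-KO-labelled array) of the 8 members as reported and under 6 other treatments of the same 2 arrays; the dotted line marks 2-fold. Fabp3 stays above 3.4 throughout, Fabp5 crosses the 2-fold line with the offset of 50 (0.97), and the 4 members below the floor go to 0 when low intensities are set to the floor.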

How the data were processed

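The authors deposited 1 linear intensity per probe set and array, with RNA of 3 mice pooled before labelling, per the labels. The methods of background correction, probe summarisation and scaling were not given in the sources used here. No detection call was used. Log2 was taken with no offset. Platform annotation gave 1 symbol to 21789 of 35557 probe sets; 1621 carried several and were not used, 12147 had no name here, and 21698 matched RefSeq (GRCm38.p6) by Entrez identifier. A gene with several probe sets (999 genes) was represented by the one with the highest mean. Differences were counted at 2-fold. The members and lists were chosen with earlier results of these data known. Named were all members, up to 4 genes above the floor with the largest differences per pathway list, the 3 genes nearest each member above the floor, 2 genes with the highest summed intensity per marker list, and neighbours of Fabp4 and Fabp5; other genes were named after their values were seen. Calculations used Python 3.11.15, numpy 2.4.6, pandas 2.3.3 and statsmodels 0.14.6. On simulated data only the 2-fold rule was checked, with built-in changes well past 2-fold and little noise. That check could hardly fail, and the other steps were not checked in this way. The alternatives were quantile normalization, median centring, loess (span 0.4), an offset of 50, the mean of probe sets, low intensities set to the floor, and other floors and thresholds.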

Additional observations from a re-analysis of the deposited data

How the results depend on the processing

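Of 48 recomputed differences of the members, 43 kept their sign and their side of 2-fold. The exceptions were Fabp5 with an offset of 50 (0.97) and the 4 members below the floor, which became 0 by construction when low intensities were set to the floor. The count of members at least 2-fold higher was 2. It was 1 with the offset of 50 (beside 2.26% of all genes tested) and with the floor at percentile 75 (4.23%), both of which lose Fabp5, and 1 at a threshold of 3-fold (0.522%). In the other 8 settings it stayed at 2, beside 1.51% of genes with no floor, 7.53% at 1.5-fold, and between 2.58% and 3.17% in the rest, including a floor set over named probe sets, which was added after seeing the data. The count of members at least 2-fold lower was 0 in all 11 settings. Of 48 list medians, 47 kept their sign and side, and that of the family relatives became 0 with low intensities set to the floor. No setting moved the median of all genes above the floor by over 0.1 on the log2 scale. With 1 array per group, no sample could be left out, and agreement between settings says nothing about the spread between mice.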
